A study of Mus musculus with 6 samples.

Results

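The genes described here were 10 CC chemokine genes, Ccl2, Ccl3, Ccl4, Ccl5, Ccl7, Ccl8, Ccl11, Ccl20, Ccl25 and Ccl28, measured in tumor cells with and without RANK. They were chosen by name, as the array probes whose accession belongs to one of these symbols, and they took up 11 of the 55681 gene probes on the array. Probes were counted as detected from the scanner's flag for signals well above background, and 9 of the 10 genes passed the filter on dim probes, among 22501 genes or transcripts tested. RANK, encoded by Tnfrsf11a, is the receptor activator of NF-kB. Both groups were MMTV-PyMT tumors, in which a mammary promoter drives the polyoma middle T oncogene, on a C57BL/6 background. One group was RANK+/+ and the other was RANK-/- through the germline of the donor mice. Late carcinoma cells of either genotype were placed in the mammary gland of young syngeneic C57BL/6 females with no RANK deletion stated, so the stroma and leukocytes of a grown tumor could come from the host. Live CD45- cells were sorted from these tumors, no group received a treatment, and the labels do not state donor age or whether tumors were pooled. Each of 3 pairs of RNAs, one of each genotype, was hybridized to 2 technical replicate 2-color arrays (A and B). The question was which transcripts differ between RANK-/- and RANK+/+ tumor cells.

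CC chemokines are small secreted proteins that bind heparan sulfate on cell surfaces and matrix and attract leukocytes through G protein-coupled CCR receptors. Most are inducible by inflammatory cytokines, and NF-kB, which acts downstream of RANK, is a known activator of several of them. Tumor cells, fibroblasts, endothelium and macrophages can each make them in mammary tumors, where they recruit monocytes, eosinophils, neutrophils and T cells.

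To show the sequence upstream of members with different readouts, promoter windows were read from RefSeq (GRCm38.p6), which held 6 windows for 5 members (Ccl3, Ccl8, Ccl20, Ccl25 and Ccl28), each from 250 bases before to 50 bases after the transcript start. The window of Ccl20, the one member that was not detected, lies on the plus strand at chr1:83116516-83116815, and that of Ccl8, one of the 2 members with the same sign in all 3 pairs, on the plus strand at chr11:82114935-82115234. Both are written 5′ to 3′ with matches to the NF-kB consensus or to TATAAA in capitals.
Ccl20: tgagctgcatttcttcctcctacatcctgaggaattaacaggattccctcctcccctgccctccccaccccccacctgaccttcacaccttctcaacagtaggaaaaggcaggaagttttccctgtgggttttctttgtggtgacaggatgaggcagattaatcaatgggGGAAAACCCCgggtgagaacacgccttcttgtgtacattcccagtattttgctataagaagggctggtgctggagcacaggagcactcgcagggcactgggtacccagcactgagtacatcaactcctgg
Ccl8: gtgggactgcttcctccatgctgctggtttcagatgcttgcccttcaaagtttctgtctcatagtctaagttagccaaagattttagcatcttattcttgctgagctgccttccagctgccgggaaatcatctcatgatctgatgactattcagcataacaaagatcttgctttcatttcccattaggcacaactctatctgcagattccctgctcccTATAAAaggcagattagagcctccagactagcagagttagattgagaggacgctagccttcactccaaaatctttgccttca
On both strands, the NF-kB consensus was matched in 8.46% of all 32851 mouse windows and in 1 of the 6 member windows, that of Ccl20, at position -80 from the start on the minus strand. A narrower form of the kappaB motif, found in 1.63% of all windows, matched Ccl20 at the same bases, all of which it shares with the consensus. TATAAA, found in 13.6% of windows, began at position -32 in Ccl8 and at position -16 in 1 window of Ccl25. TGANTCA (7.81% of windows) matched Ccl28 at position 20, and the core of the interferon response element (3.44% of windows) matched no member window. A match describes letters in the window and does not mark a site in use.

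As a check of the labels, Tnfrsf11a itself was read first. Its 1 probe (NM_009399) was detected on each of the 6 arrays for either genotype. Its log2 ratios, RANK-/- over RANK+/+, were 2.03, 1.15 and 1.76 for the pairs numbered 1, 2 and 3 (mean 1.65 ± 0.45, SD, n = 3). In limma its mean ratio had a 95% interval of 1.05 to 2.25 and an adjusted p of 0.999, with an unadjusted p of 0.00131. The higher signal in the channel labeled RANK-/- goes against the label. Where the probe lies relative to the deleted part of the gene is not known from the sources used here. Every direction below is therefore that of the channel labeled RANK-/- or labeled RANK+/+. Between 51.9% and 58.8% of gene probes were well above background per array and channel, and ratios of technical replicate arrays correlated across genes at r = 0.973 to 0.983. Ratios of different pairs correlated across genes at r = -0.28 for pairs 1 and 2, 0.18 for pairs 1 and 3 and -0.08 for pairs 2 and 3. Pair 1 had the opposite dye arrangement to pairs 2 and 3, so pair 1 and its dyes cannot be told apart. All 8 luminal epithelial markers were tested and detected, and transcripts of other cells were present as well. Ptprc, which encodes CD45, was detected on 5 of the 6 arrays for RANK-/- and on 4 for RANK+/+.

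No member passed the test of the difference between genotypes. The limma fit called 0 of the 9 tested members and 0% of all genes at an adjusted p under 0.05. At an unadjusted p under 0.05 it called 1 member, Ccl8, and 646 genes (2.87%), and the rank product, at a proportion of false positives under 0.05, called 0 members and 16 genes (0.0711%). The 9 mean log2 ratios had a median of 0.61, against 0.00 for all genes tested, and ran from -0.39 for Ccl4 to 1.04 for Ccl7. The members differed strongly between pairs: their median ratio was -0.23 in pair 1, 0.20 in pair 2 and 1.09 in pair 3, where the medians of all genes were 0.02, -0.01 and 0.00. In a sorted population, fewer cells of a type and less RNA per cell cannot be told apart.

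**Figure D1:**
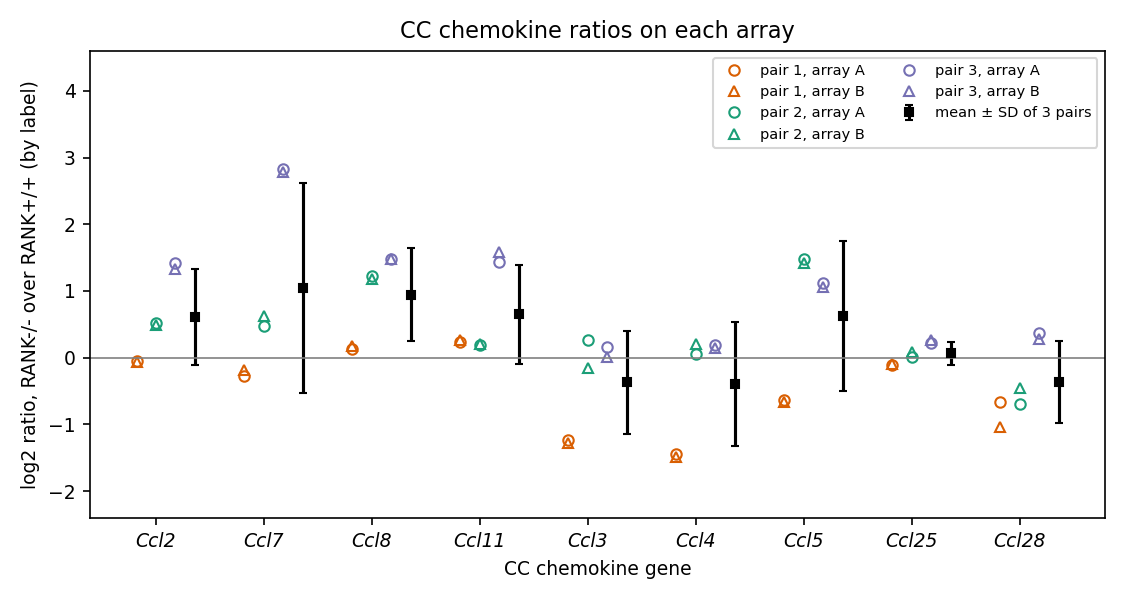
Log2 ratio (vertical axis, RANK-/- over RANK+/+ by label) of each tested CC chemokine gene on each of the 6 arrays, colored by pair, with circles for array A and triangles for array B. Black squares and bars give the mean ± SD of the 3 pairs. Arrays A and B nearly coincide for most genes while pairs lie apart, with Ccl7 reaching 2.80 in pair 3 and Ccl4 at -1.46 in pair 1.

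The sign of the ratio followed the pair. In pair 1, 2 of 9 members lay above 0 (52% of all genes), in pair 2 there were 8 (48.3%), and in pair 3 all 9 did (50.1%). Ccl8 and Ccl11 were above 0 in all 3 pairs, 2 of 9 against 9.96% of all genes, and 0 members were below 0 in all 3 pairs (9.65% of all genes). Above 0 in both pair 2 and pair 3 were 8 of 9 members, all but Ccl28, against 23.4% of all genes. Of these, Ccl3 (0.05 and 0.09), Ccl4 (0.12 and 0.17) and Ccl25 in pair 2 (0.05) lay close to 0. In pair 1, Ccl2 (-0.05) and Ccl25 (-0.10) lay close below 0, and Ccl8 (0.16) lay close above it. At least 2-fold lower in the channel labeled RANK-/- of pair 1 were Ccl3 and Ccl4 (2.84% of all genes). At least 2-fold higher there were Ccl5 and Ccl8 in pair 2 (2.45%), and Ccl2, Ccl5, Ccl7, Ccl8 and Ccl11 in pair 3 (4.91%). The range over pairs was 1 or more on the log2 scale for 8 of 9 members (27.1% of genes) and 2 or more for Ccl5 and Ccl7 (5.57%). Ccl28 passed the filter through RANK+/+ of pairs 1 and 2 alone, so its signs and range in these counts were not free of the filter.

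Of the ligands that lie in 1 cluster on chromosome 11 and attract monocytes, eosinophils or T cells, Ccl2, Ccl7, Ccl8 and Ccl11, none passed the test, with mean log2 ratios of 0.61 to 1.04. Ccl2 (NM_011333), a main monocyte attractant that acts through Ccr2, was read by 10 spots per array, and its log2 ratios were -0.05, 0.50 and 1.38 (in the order of pairs 1, 2 and 3, as for all values below; mean 0.61 ± 0.72, SD, n = 3). The SD of its 10 spots within an array was 0.04 to 0.10, so the gap between pairs was many times that between spots. Its log2 signal was 12.19, 12.20 and 11.47 in the channel labeled RANK-/- and 12.24, 11.69 and 10.09 in that labeled RANK+/+. Both channels were close in pair 1, and the groups overlapped, with the lowest value in RANK+/+ of pair 3. The 95% interval of its mean ratio in the limma fit, -0.24 to 1.46, held 0.

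Ccl7 (NM_013654), another Ccr2 ligand, had the mean farthest from 0 and the widest spread of the tested members, whichever way the ratio is turned. Its log2 ratios were -0.23, 0.54 and 2.80 (mean 1.04 ± 1.57, SD, n = 3), a 6.98-fold higher signal in the channel labeled RANK-/- of pair 3. The log2 signal labeled RANK-/- was 11.27, 11.45 and 11.99, and that labeled RANK+/+ was 11.49, 10.91 and 9.19. Pair 3 carried the mean, which was 0.16 without it, and the groups overlapped.

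Ccl8 (NM_021443), in the mouse an attractant of Ccr8-bearing T cells, was above 0 in every pair, as was Ccl11. Its log2 ratios were 0.16, 1.21 and 1.48 (mean 0.95 ± 0.70, SD, n = 3), and arrays A and B differed by at most 0.04. In limma its mean ratio had a 95% interval of 0.12 to 1.77 and an adjusted p of 0.999, with an unadjusted p of 0.0329. The log2 signal was 10.03, 9.79 and 9.97 in the channel labeled RANK-/- and 9.87, 8.58 and 8.49 in that labeled RANK+/+. The RANK-/- values lay within a narrow band, and the groups overlapped through RANK+/+ of pair 1 alone.

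Ccl11 (NM_011330) encodes eotaxin 1, an eosinophil attractant that acts through Ccr3. Its log2 ratios were 0.25, 0.20 and 1.51 (mean 0.65 ± 0.74, SD, n = 3; 95% interval in limma -0.22 to 1.52). Its log2 signal labeled RANK-/- was 10.22, 9.55 and 9.87, against 9.98, 9.35 and 8.36 in RANK+/+. The groups overlapped, and without pair 3 the mean was 0.22.

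The ligands of the MIP-1 and RANTES group differed among themselves. Ccl3 (NM_011337) encodes MIP-1alpha, which attracts monocytes and T cells, and its log2 ratios were -1.26, 0.05 and 0.09 (mean -0.37 ± 0.77, SD, n = 3). Its log2 signal labeled RANK-/- was 7.06, 6.62 and 6.25, and that labeled RANK+/+ 8.32, 6.57 and 6.16. The RANK+/+ value of pair 1 was the highest of the 6, and the others lay close together. Ccl3 was detected on all 6 arrays for RANK-/- and on 4 for RANK+/+, where both arrays of pair 3 were not well above background. Arrays A and B of pair 2 gave 0.27 and -0.16, the widest technical gap of any tested member.

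Ccl4 (NM_013652), which encodes MIP-1beta, was much like Ccl3. Its log2 ratios were -1.46, 0.12 and 0.17 (mean -0.39 ± 0.93, SD, n = 3), with a 2.76-fold lower signal in the channel labeled RANK-/- of pair 1. The log2 signal was 7.32, 7.09 and 6.57 in the channel labeled RANK-/- and 8.78, 6.97 and 6.40 in that labeled RANK+/+. Ccl4 was detected on all arrays, but in pair 3 it lay not far above the undetected Ccl20 (5.89 to 5.95). How far low signal held the ratios of Ccl3 and Ccl4 near 0 in pair 3 was not tested. Again RANK+/+ of pair 1 stood above the other 5 values, and without pair 1 the means of Ccl3 and Ccl4 turned to 0.07 and 0.15.

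Ccl5 (NM_013653), or RANTES, attracts T cells and monocytes. Its log2 ratios were -0.65, 1.44 and 1.09 (mean 0.63 ± 1.12, SD, n = 3), and without pair 1 the mean was 1.27. Its log2 signal labeled RANK-/- was 9.62, 10.90 and 8.85, against 10.28, 9.46 and 7.75 in RANK+/+. It was the single member whose RANK-/- levels also varied widely between pairs, and the groups overlapped.

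The ligands known from epithelia were undetected, dim or close in both channels. Ccl20 (NM_016960), the Ccr6 ligand made by epithelia under NF-kB control, was not well above background for either genotype (0 of 6 arrays), so it was not tested and has no fold change. Ccl28 (NM_020279), a mucosal and mammary epithelial ligand of Ccr10 that attracts IgA plasma cells, was detected on 2 arrays in the channel labeled RANK-/-, both of pair 3, and on 4 in that labeled RANK+/+, those of pairs 1 and 2. It passed the filter through RANK+/+ alone, and its log2 ratios were -0.85, -0.57 and 0.33 (mean -0.37 ± 0.62, SD, n = 3). Its log2 signal labeled RANK-/- was 5.97, 6.04 and 6.46, and that labeled RANK+/+ 6.82, 6.61 and 6.13. The pairs in which it was detected changed sides with the sign of the ratio, but flag and ratio are read from the same spots. This dim probe was the most open to the background treatment: its mean was -1.16 with a normexp offset of 0 and -1.53 from the scanner's processed signals.

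Ccl25 (NM_009138), the Ccr9 ligand of thymus and small intestine, had log2 ratios of -0.10, 0.05 and 0.24 (mean 0.06 ± 0.17, SD, n = 3). Its log2 signal was 9.23, 9.33 and 9.27 in the channel labeled RANK-/- and 9.33, 9.28 and 9.03 in that labeled RANK+/+. The values were close in all 6 channels, although the 95% interval in limma, -0.34 to 0.47, leaves room for a moderate difference. A second Ccl25 probe (NR_033527) was detected on 3 and 4 arrays in the channels labeled RANK-/- and RANK+/+, failed the filter, and gave -0.06, 0.04 and 0.03.

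Set by channel, the spread between pairs was wider on the RANK+/+ side, a comparison that was not among those planned. In none of the 9 members (0) did the signals of the genotypes separate over the 3 pairs (7.46% of all genes). The range over pairs was wider in the channel labeled RANK+/+ for all 9 members (50.8% of all genes) and at least 2 times as wide for 7, all but Ccl5 and Ccl28 (21.1%). For Ccl8 the range was 1.39 in RANK+/+ and 0.24 in RANK-/-, for Ccl7 it was 2.30 and 0.73, and for Ccl5 it was 2.52 and 2.06, all on the log2 scale. In all 9 members the RANK+/+ signal was highest in pair 1 and lowest in pair 3 (15.9% of all genes), an order that was picked out after the values were seen. The RANK-/- signal had that order in Ccl3 and Ccl4 (12.6% of all genes). Ccl28 passed the filter through RANK+/+ of pairs 1 and 2 alone. Its place in the counts of the wider range and of the RANK+/+ order was thus not free of the filter. With median centring in place of loess, the RANK+/+ order was found in 7 members against 8.28% of genes. RANK+/+ was in Cy3 in pair 1 and in Cy5 in pairs 2 and 3, so the height of pair 1 cannot be told apart from its dye. The same holds for the ranges, which take in pair 1. Pairs 2 and 3 shared their dyes.

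**Figure D2:**
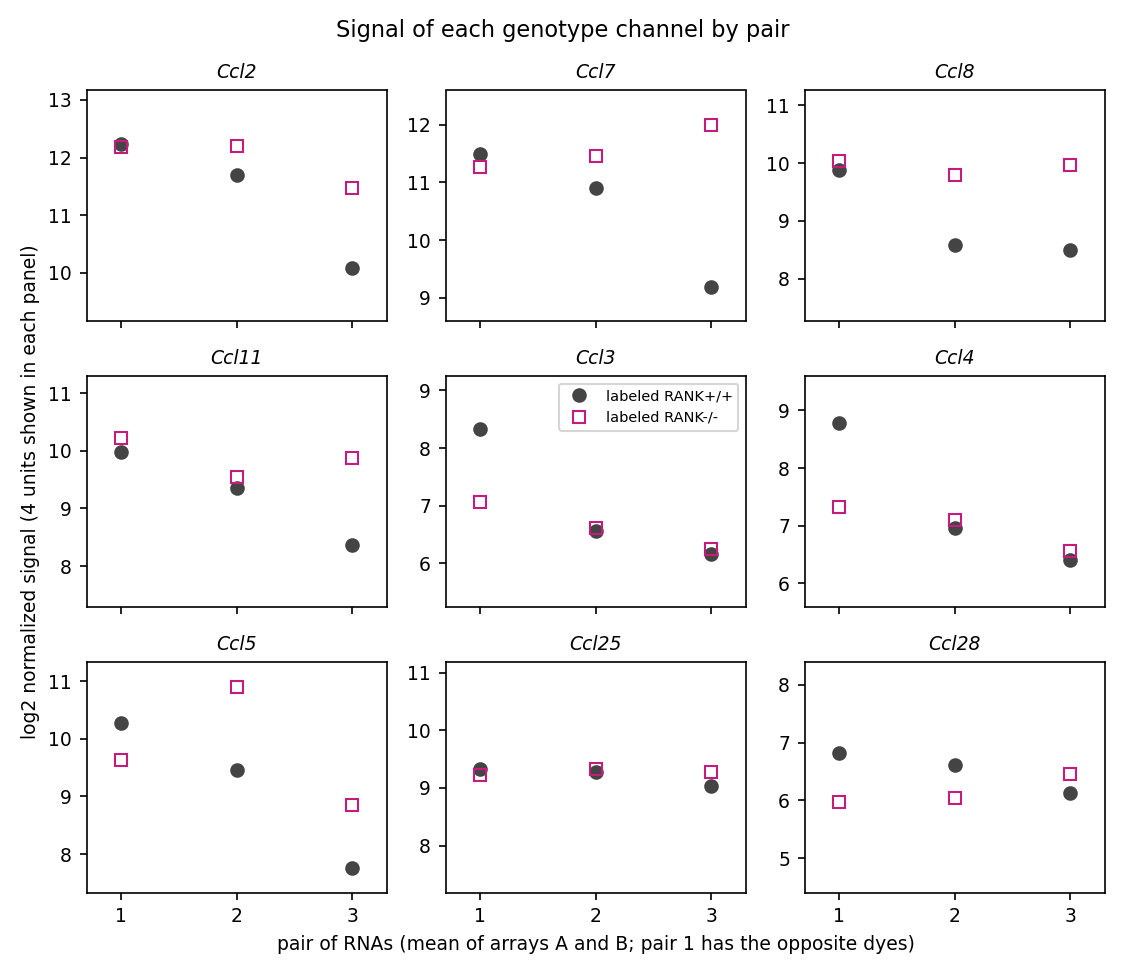
Log2 normalized signal (vertical axis, 4 units in every panel) of each tested CC chemokine gene in pairs 1, 2 and 3 (horizontal axis), with filled circles for the channel labeled RANK+/+ and open squares for that labeled RANK-/-, each the mean of arrays A and B. The circles are highest in pair 1 and lowest in pair 3 in all 9 panels, while the squares of Ccl8 stay between 9.79 and 10.03.

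Of the members, 7 lie in the chemokine clusters of chromosome 11. In the RefSeq order the first group runs Ccl2, Ccl7, Ccl11, Ccl12, Ccl8 and Ccl1, and the later group Ccl5, Ccl16-ps, Ccl9, Ccl6, Ccl3 and Ccl4. The 4 members of the first group had mean log2 ratios of 0.61 to 1.04 and ratios of 1.38 to 2.80 in pair 3. Ccl12, a Ccr2 ligand that sits between Ccl11 and Ccl8, had -0.17, 0.19 and -0.20 and was detected on 4 and 3 arrays in the channels labeled RANK-/- and RANK+/+. In the later group the neighbors Ccl9 and Ccl6, which encode Ccr1 ligands, were above 0 in pair 1 (0.48 and 0.38), where Ccl3, Ccl4 and Ccl5 were below it. Ccl3 and Ccl4, which are next to each other, had similar ratios in every pair. Their annotated spans overlap in RefSeq, and each gene was read by a single probe of its own.

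**Figure D3:**
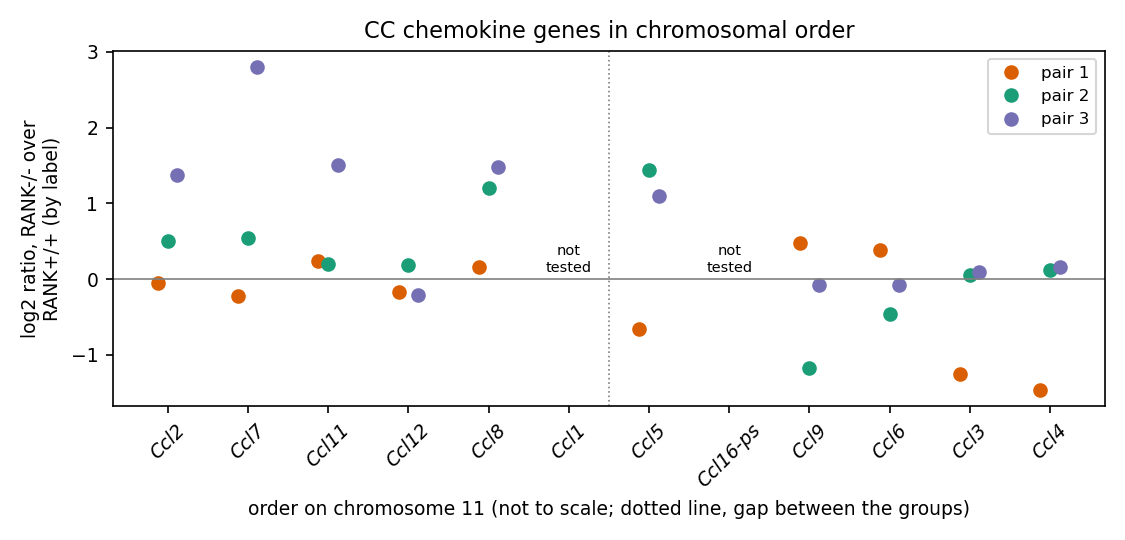
Log2 ratio (vertical axis, RANK-/- over RANK+/+ by label) of the CC chemokine genes on chromosome 11, drawn in RefSeq order and not to scale, with 1 point per pair and a dotted line between the groups. In pair 3 the points of Ccl2, Ccl7, Ccl11 and Ccl8 lie from 1.38 to 2.80 and that of Ccl12 at -0.20.

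Members were compared by the root mean square difference of their log2 ratios over the 6 arrays, which share libraries and dyes within a pair. The closest were Ccl3 and Ccl4 (0.218), then Ccl2 and Ccl11 (0.266) and Ccl2 and Ccl8 (0.427). Outside the family, Siah2 (0.0577), Col5a1 (0.0850) and Amdhd2 (0.0941) were closest to Ccl11, among 73 genes within 0.25. BC019425 (0.113), Zap70 (0.131) and Nxn (0.131) were closest to Ccl3, among 55 such genes.

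The other genes of the CC system showed no limma calls (0 in every list). Of 14 other CC ligands, 10 had a matched probe and 6 were tested, with a median mean ratio of -0.06 and pair medians of 0.43, -0.19 and -0.08. In this list Ccl19, the Ccr7 ligand that guides naive T cells and dendritic cells, was above 0 in all 3 pairs (0.49, 0.43 and 1.15), and the other 5 were mixed. Of 12 CC receptor genes only 4 were tested, Ccr2, Ccr7, Ccr8 and Ccrl2, all with mixed signs and a median of -0.08. The receptors Ccr1, Ccr1l1, Ccr4, Ccr9 and Ccr10 were detected on 0 arrays, and Ccr6 on 2 arrays of RANK+/+ alone. Among the scavenging receptors, which bind chemokines without attracting cells, Ackr1 (0.38, 0.27 and 1.39) and Ackr2 (0.17, 0.37 and 0.82) were above 0 in all 3 pairs and Ackr4 was mixed. Of 10 genes for heparan sulfate carriers and their enzymes, Sdc3 was above 0 in all pairs (mean 0.98 ± 0.72, SD, n = 3), Sdc1 below 0 in all pairs (mean -0.64 ± 0.24, SD, n = 3) and 8 were mixed.

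Markers of other cells also differed between pairs. All 10 fibroblast markers were tested, with medians of 0.13, 0.57 and 1.88 by pair beside -0.23, 0.20 and 1.09 for the chemokines. Above 0 were 6 of the 10 in pair 1 and 7 in pair 2. In pair 3 all 10 were above 0, from 0.76 for Pdgfrb to 2.91 for Dcn. The log2 of their summed signal was 17.20, 16.45 and 15.76 in the channel labeled RANK+/+ and 17.17 to 17.88 in that labeled RANK-/-. For the chemokines the sum was 13.60, 12.95 and 11.70 in RANK+/+. The summed RANK+/+ signal had the same order of pairs in 9 of all 12 other lists. These held 6 of the 8 cell type lists, all but endothelium and luminal epithelium. A sum follows the brightest genes of its list, and some steps were small (leukocytes 12.89 to 12.65, proteoglycans 14.12 to 14.01). Among single genes, 15.9% of all tested had that order. Leukocyte markers (5 of 6 tested) had medians of -0.92, 0.10 and 0.26 and macrophage markers (8 of 8) -0.43, 0.27 and 0.19. The leukocyte sum (log2) was 12.89, 12.76 and 12.65 in the channel labeled RANK+/+ and 13.12, 12.34 and 13.12 in that labeled RANK-/-. In pair 1 it was thus higher in RANK-/-, although the median ratio there was -0.92. For macrophages the sum was 12.04, 11.23 and 10.73 in RANK+/+ and 11.03 to 11.53 in RANK-/-. In pair 1, where Ccl3 and Ccl4 were below 0, Ptprc had a ratio of -0.93 and S100a8 and S100a9, which mark neutrophils, -3.99 and -4.12. Other markers of the same lists lay above 0 in pair 1, Lcp1 at 0.49 and Csf3r at 0.42. The neutrophil list (3 of 6 tested) had medians of -3.99, -0.03 and -0.11. Its summed log2 signal was 16.01, 15.55 and 15.48 for RANK+/+ and 15.81, 15.53 and 15.43 for RANK-/-. In pair 1 these sums lay close while the median was far below 0, and they were not tested as a measure of neutrophils. T and NK markers (5 of 9 tested) had medians of -0.16, 0.03 and 0.01, and their summed log2 signals were 11.18, 11.08 and 10.97 in RANK+/+ and 11.08 to 11.13 in RANK-/-. Endothelial markers (7 of 7) had medians of 0.00, -0.01 and 0.55, luminal epithelial markers 0.29, -0.61 and 0.73, and basal markers (6 of 6) -0.71, 0.00 and -0.07. None of the tested markers of the fibroblast, endothelial or luminal lists was at background, and their part in the chemokine ratios was not tested.

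**Figure D4:**
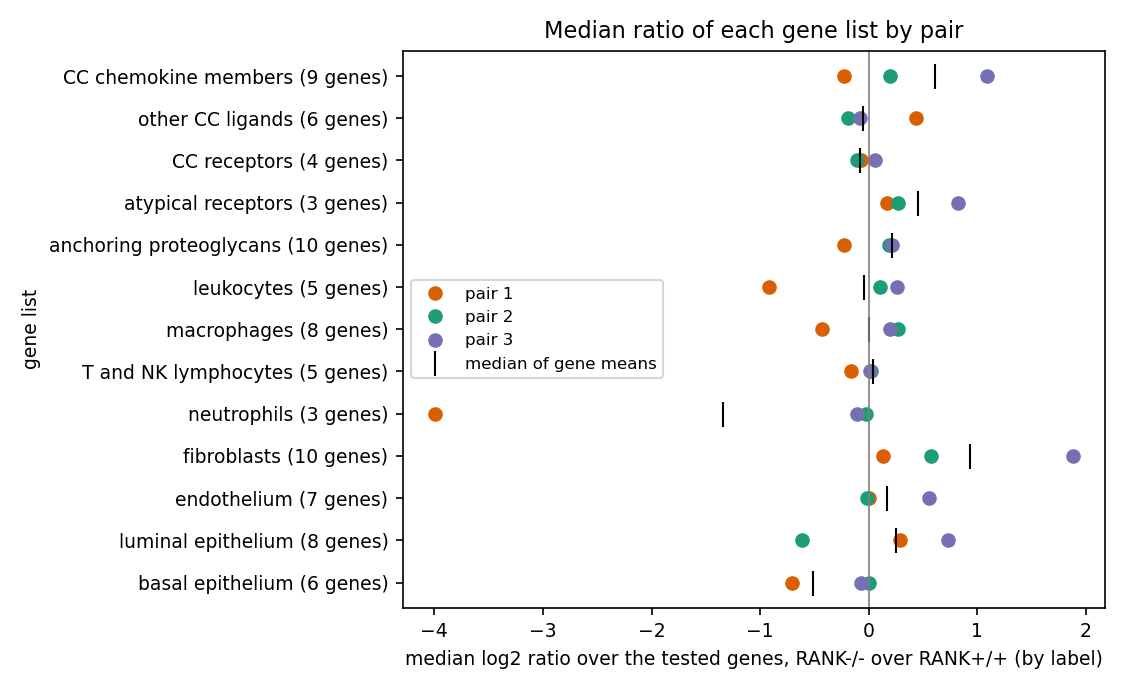
Median log2 ratio (horizontal axis, RANK-/- over RANK+/+ by label) over the tested genes of each list (vertical axis), with 1 point per pair and a black bar for the median of the gene means. The chemokines have their lowest median in pair 1 (-0.23) and their highest in pair 3 (1.09), as do 4 of the 12 other lists, the fibroblast markers (0.13 and 1.88), the leukocyte markers (-0.92 and 0.26), the atypical receptors (0.17 and 0.82) and the proteoglycans (-0.23 and 0.21).

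Which pairs entered the mean mattered more than the processing for several members. Leaving out 1 pair gave 0.16 to 1.67 for Ccl7 and 0.22 to 1.27 for Ccl5, while the direction of Ccl2, Ccl5, Ccl7, Ccl8 and Ccl11 was the same in every setting that gave a value.

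**Figure D5:**
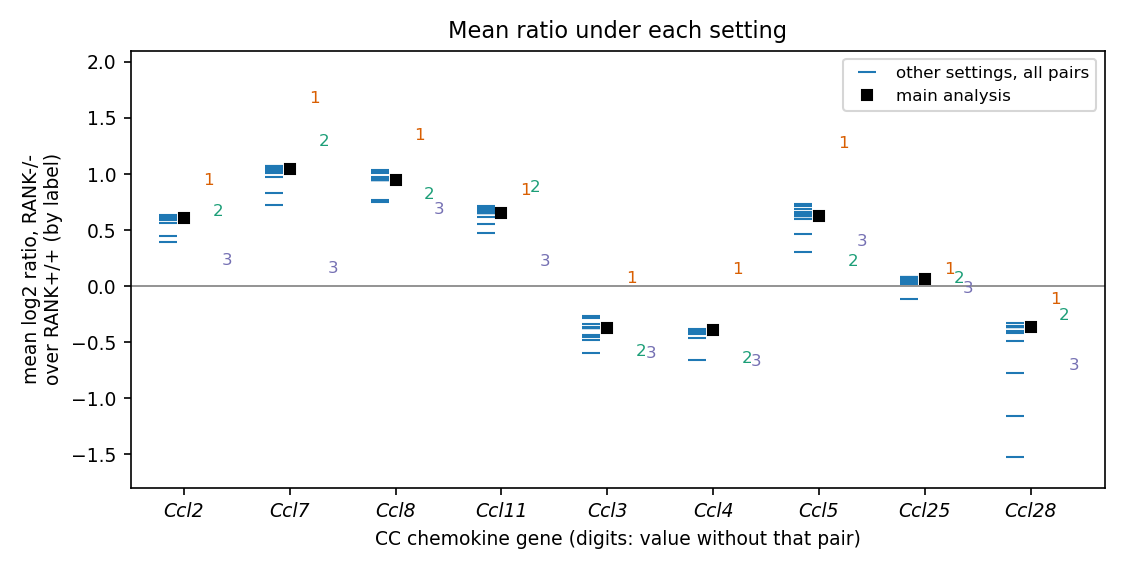
Mean log2 ratio (vertical axis, RANK-/- over RANK+/+ by label) of each tested CC chemokine gene under each processing setting (blue dashes), in the reported analysis (black squares) and without pair 1, 2 or 3 (digits). For all genes but Ccl25 and Ccl28 the digits spread more widely than the dashes, for Ccl28 the dashes reach -1.53, and Ccl3 and Ccl4 cross 0 without pair 1.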

How the data were processed

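RNA of sorted CD45- cells was read on SurePrint G3 Mouse 2-color arrays. Spots were extracted by the authors (Feature Extraction 10.7.3.1), and their deposited scanner output holds median spot and background intensity per channel, without normalization, and, per the file headers, processed intensity values and their log10 ratio. The deposited series table holds log2 ratios, normalized by the authors, with no stated direction. Set against the scanner ratios (r = 0.825 to 0.862) it ran as RANK-/- over RANK+/+, with column medians of -0.01 to 0.01. Both processed sets served as alternatives.

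Groups, pairs and dyes came from the labels. RANK-/- was in Cy5 in pair 1 and RANK+/+ in Cy5 in pairs 2 and 3. Per the labels, dyes were not swapped within a pair, while the methods describe swaps. All arrays lay on 1 slide. The series' design text calls the 3 RNAs of a genotype biological replicates without saying that they came from separate tumors, so p-values measure the spread between these samples.

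Median signals were corrected with normexp (offset 50) and normalized by intensity loess and Aquantile in limma 3.58.1 (R 4.3.3). Control spots (3671 per array) and outlier spots (212 to 260) were left out, and 0 spots were saturated. Ratios were turned to RANK-/- over RANK+/+, spots of a probe and arrays A and B were averaged, giving n = 3. A probe was kept when the flag held for 1 genotype in 2 or more pairs, on both arrays (30230 probes), and the brightest probe stood for a gene. Symbols came from RefSeq (28026 probes matched). The array grid names mm9, so RefSeq's GRCm38.p6 served only for names, gene order and overlap, and the printed promoter windows. Genes were tested with limma (intercept only, two-sided, Benjamini-Hochberg over 22501 genes, threshold 0.05) and by a rank product written for this work (500 draws), which is not the package the study used and may differ from it. An exact sign-flip test of 3 pairs cannot give a p below 0.25. The number of pairs limits precision. The limma fit and the rank product were run on simulated pair ratios, which did not cover normalization or the filter. Alternatives covered background, normalization, filter, probe choice, single arrays, dye and leaving out each pair. All 10 members and Tnfrsf11a were named, and from each list at most 3 genes with 1 sign in all pairs, plus genes chosen after their values were seen (Ccl6, Ccl9, Ccl12, Pdgfrb, Dcn, Ptprc, S100a8, S100a9, Lcp1, Csf3r and the receptors). The members and lists were chosen with earlier results of these data known. One gene of the lists is not reported here.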

Additional observations from a re-analysis of the deposited data

How the results depend on the processing

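The limma count stayed at 0 in every setting with 1 value per pair, with 461 (without pair 3) to 1877 (without pair 2) genes at an unadjusted p under 0.05. It was 298 with the 6 arrays as separate replicates, which counts technical arrays as samples, and 13 with pairs fitted as random blocks (correlation 0.962), and the rank product called 16. In the fits that gave values for members, the lowest adjusted p was 0.269, for Ccl8 with the random block. Both RNAs of a pair share arrays, so the ratio holds the pairing. With no replicate block the limma count was 0, with 826 genes at an unadjusted p under 0.05. After their means were removed, same-numbered channels did not deviate together (r = -0.03, -0.22 and -0.04).

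The count of members with 1 sign in the pairs used was 2 to 8 when a pair was left out, with 8 without pair 1 (48.4% of all genes then share a sign), 2 without pair 2 (55.4%) and 3 without pair 3 (35.4%), and 3 with median centring. The count without pair 3 holds Ccl28, whose place in it was not free of the filter. The median ratio was 0.16 to 0.85 when a pair was left out (0.16 without pair 3, 0.22 without pair 2), 0.39 with median centring, 0.31 with a dye term and 0.34 with no filter, which adds Ccl20. Signs turned for Ccl3 (0.072) and Ccl4 (0.15) without pair 1, and for Ccl25 with median centring (-0.12) and without pair 3 (-0.025). The cause was not tested. Leaving out 1 pair gave -0.60 to 0.072 for Ccl3, -0.67 to 0.15 for Ccl4, -0.025 to 0.15 for Ccl25, 0.23 to 0.94 for Ccl2, 0.22 to 1.27 for Ccl5, 0.16 to 1.67 for Ccl7, 0.68 to 1.34 for Ccl8, 0.22 to 0.88 for Ccl11 and -0.71 to -0.12 for Ccl28. Ccl28, dim in both channels, was also at -0.77 in the series table. Signal over background limits Ccl3, Ccl20 and Ccl28, and Ccl4 in pair 3.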
